A study of Mus musculus with 81 samples.

Results

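RLTR11 and RLTR17 are 2 groups of long terminal repeats (LTRs) of mouse endogenous retroviruses, and every one of their species belongs to the ERVK class. Members were the loci whose species name begins with RLTR11 or RLTR17 in the 4 normalized read count tables of LTR loci. They comprised 38307 of 970384 loci, of which 7762 belonged to the RLTR11 group and 30545 to the RLTR17 group. The RLTR11 group held 5 species, namely RLTR11A (2653 loci), RLTR11A2 (2674), RLTR11B (1048), RLTR11C_MM (858) and RLTR11D (529). The RLTR17 group held 4 species, namely RLTR17 (1757), RLTR17B_Mm (27345), RLTR17C_Mm (218) and RLTR17D_Mm (1225). Because RLTR17 names both a group and a species, it is called the RLTR17 species wherever the species alone is meant.

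The libraries came from fetal testes at E18.5, an embryonic stage shortly before birth, of OG2 mice, a strain whose germline cells express EGFP from the Pou5f1 promoter and distal enhancer, and every group carried this transgene. F0 dams drank water with 50 nM tributyltin (TBT), an organotin that activates the nuclear receptors RXR and PPARγ, or with 0.1% DMSO as the control, from before mating until weaning, while the sires were not exposed. F1 fetuses were exposed in utero, whereas F3 fetuses descended from them by matings within the exposure group and were not exposed. Cells were sorted into P4 and P5, both EGFP-positive germline and set apart by side scatter, and P6, the EGFP-negative somatic majority of the testis. RNA libraries numbered 5 DMSO and 7 TBT in F1 P4, 4 and 7 in F1 P5, 5 and 7 in F1 P6, and 4 and 5 in each F3 population. Methyl-CpG binding domain (MBD) libraries of P6 numbered 3 DMSO and 4 TBT in F1, and 5 and 7 in F3. The labels do not say whether each library is a separate fetus, so p-values measure the spread between libraries, which may be technical. The paper describes the MBD samples as independently generated. F1 germline labels carry numbers such as 45-3, whose first part was 43, 44 or 48 in DMSO and 45 or 47 in TBT. What the first part stands for is not said, and the fits treat these libraries as independent. It was never shared between exposures, so its effect and that of exposure cannot be told apart.

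An LTR is the repeated end of a retroviral insertion. It carries the signals that start and end a retroviral transcript, and most insertions in the genome have lost everything but a solitary LTR. ERVK elements are endogenous relatives of the betaretroviruses. In the fetal testis the germline passes through a time when LTR DNA loses and then regains methylation, and piRNA-guided proteins such as PIWIL2 and PIWIL4 take part in silencing these elements, whereas somatic cells keep most of them methylated. A read at an LTR within an intron can also come from the unspliced transcript of the host gene, so loci inside and outside genes are described apart.

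The groups differed in place and in sequence. Of the RLTR11 loci 62.7% lay outside genes, 35.2% in introns and 2.07% over exons (gencode annotation, GRCm38). The RLTR17 loci were more often intronic, with 54.2% outside genes, 43.5% in introns and 2.32% over exons, against 64.5%, 33.0% and 2.48% of all LTR loci. The median RLTR11 locus was 424 bases long and the median RLTR17 locus 131 bases, against 261 bases for all loci. The short length came from RLTR17B_Mm, with a median of 126 bases, since the median locus of the RLTR17 species had 512 bases and that of RLTR17D_Mm 761 bases. Median GC content was 42.5% in the RLTR11 group, 30.7% in the RLTR17 group and 44% over all loci.

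RLTR17B_Mm stood apart within its group. It had a median GC content of 29.2%, 63.4% of its loci had no CpG site, and 43.5% held a run of at least 12 bases of 1 repeated dinucleotide, against 5.53% of all loci, 2.99% of the RLTR11 group and 48.4% of the RLTR20 group. The RLTR17 species was the opposite, with a median GC content of 46.7%, 1.21 CpG sites per 100 bases on average and 8.37% of loci without any. The tables used here give no strand for an element, so the first bases on the plus strand can be either end of it. Motifs were searched on both strands in the first 300 plus-strand bases of the loci that long, which were 4970 RLTR11 loci, 2846 RLTR17 loci and 431710 of all loci. AATAAA, the usual polyadenylation signal, was present in 60.7% of these RLTR11 loci, 42.7% of the RLTR17 loci and 35.5% of all, and in 76.7% of RLTR11B. TATAAA, the core of the TATA box, was present in 33.1%, 31.6% and 24.4%, with the extremes at RLTR17D_Mm (57.4%) and the RLTR17 species (10.9%). CACGTG, the E-box, was found in 2.96%, 4.32% and 2.87%, and the octamer ATTTGCAT in 0.523%, 1.86% and 1.68%. A match of letters describes these windows and is not a binding site.

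The 7 elements outside genes of the gencode annotation that the results turn on are shown first. Each is on the plus strand of GRCm38 (mm10) and 5′ to 3′, whole or as the first 300 bases. RefSeq places some of them within a gene, so their reads can also come from a host transcript. Capitals mark AATAAA or TATAAA on either strand and dinucleotide runs of at least 12 bases. The first 3 are the RLTR11 elements, at chr17:34996674-34996973 between Lsm2 and Vars, chr15:75086952-75087046 between Gm28502 and Ly6c2, and chr5:147743251-147743331, the last lying between Flt1 and Gm43156 within the RefSeq gene Gm35541. The others belong to the RLTR17 group, at chr15:91261444-91261534 next to CN725425, chr4:14290839-14291138 within the RefSeq gene Gm2560, chr17:74480482-74480781 between Nlrc4 and Yipf4, and chr6:82184010-82184309 between Eva1a and Gm31861.
RLTR11A, chr17: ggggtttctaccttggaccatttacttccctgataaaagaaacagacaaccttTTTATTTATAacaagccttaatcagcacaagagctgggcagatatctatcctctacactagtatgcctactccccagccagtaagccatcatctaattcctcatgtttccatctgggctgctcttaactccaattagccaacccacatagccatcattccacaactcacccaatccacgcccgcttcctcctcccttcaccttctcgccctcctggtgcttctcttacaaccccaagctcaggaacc
RLTR11A, chr15: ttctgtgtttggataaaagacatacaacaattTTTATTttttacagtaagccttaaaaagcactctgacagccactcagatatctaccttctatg
RLTR11A2, chr5: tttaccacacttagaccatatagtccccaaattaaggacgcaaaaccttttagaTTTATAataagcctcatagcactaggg
RLTR17B_Mm, chr15: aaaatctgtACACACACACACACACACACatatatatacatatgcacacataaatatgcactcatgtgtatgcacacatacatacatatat
RLTR17, chr4: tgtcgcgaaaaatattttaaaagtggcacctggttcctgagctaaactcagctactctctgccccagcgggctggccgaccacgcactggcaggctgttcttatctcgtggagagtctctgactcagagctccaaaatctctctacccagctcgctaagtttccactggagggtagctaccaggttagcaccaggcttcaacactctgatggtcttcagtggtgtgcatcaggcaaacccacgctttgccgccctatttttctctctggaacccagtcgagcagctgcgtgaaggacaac
RLTR17, chr17: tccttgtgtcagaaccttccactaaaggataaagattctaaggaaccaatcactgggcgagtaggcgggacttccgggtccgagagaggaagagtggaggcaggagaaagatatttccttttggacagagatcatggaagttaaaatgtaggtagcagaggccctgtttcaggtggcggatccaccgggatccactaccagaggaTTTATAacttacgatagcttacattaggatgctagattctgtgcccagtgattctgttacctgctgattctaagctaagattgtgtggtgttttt
RLTR17, chr6: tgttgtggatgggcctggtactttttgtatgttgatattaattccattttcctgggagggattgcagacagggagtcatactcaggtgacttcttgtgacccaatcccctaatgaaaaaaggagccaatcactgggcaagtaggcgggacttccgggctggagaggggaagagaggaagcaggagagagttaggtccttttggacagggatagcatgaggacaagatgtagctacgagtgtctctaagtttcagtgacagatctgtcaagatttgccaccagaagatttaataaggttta

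Whole copies of the RLTR17 species differed from each other, with 73.4% identity between the chr4 and chr6 elements (on opposite strands), 68.6% between chr4 and chr17 (opposite) and 67.2% between chr6 and chr17 (same strand). The RLTR11A element on chr17 had 72.9% identity to the RLTR11A2 element on chr5 and 68.7% to the RLTR11A element on chr15. The RLTR17B_Mm element on chr15 held an AC run of 20 bases among its 91 bases.

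Each library held 246520 to 8161548 reads at LTR loci, and 5 F3 germline libraries had the fewest reads or stood apart, namely P4 TBT 5 (833449 reads), P4 TBT 9 (1187234), P5 TBT 5 (246520), P5 DMSO 1 (2017404) and P5 DMSO 2 (1606422). Germ cell markers, summed over the LTR loci within 8 of 10 listed genes, were at 9006 to 17928 normalized read counts in F1 P4, 6565 to 13821 in F1 P5, and 22.8 to 41.1 in F1 P6. In F3 they spanned 927 to 13731 in P4, 127 to 10303 in P5 and 14.4 to 184 in P6. Sertoli cell markers (3 of 5 genes) ran from 637 to 971 in P6 and from 0 to 81.0 in germline, and the peritubular and stromal list (3 of 4) from 334 to 641 and from 0 to 41.6. Leydig (2 of 5), endothelial (3 of 3) and blood (2 of 3) markers reached at most 204, 106 and 10.3 in germline libraries. In P6 the Leydig list ran from 39.6 to 317 in F1 and from 25.2 to 62.8 in F3, and its median of 91.3 in F1 P4 DMSO lay above the 54.1 of F1 P6 DMSO. In F1 every germline library lay above every P6 library for germ cell markers. In F3 P5 TBT 5, at 127, lay below P6 DMSO 3 and 4, at 184 and 167, and the other germline libraries lay above P6. Reads outside genes made up 6.79% and 6.95% of F1 P6 TBT 7 and 8, where the F1 P6 DMSO median was 1.34%, with germ cell markers at 41.1 and 40.4, the upper end of the F1 P6 TBT range of 24.2 to 41.1, and the part of germline RNA in their values was not tested.

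The share of the LTR reads taken by each group overlapped between DMSO and TBT libraries in each population. The RLTR11 group had a median of 0.894% in F1 P4 DMSO (0.886 to 0.901%, n = 5) and 0.891% in TBT (0.870 to 0.907%, n = 7). In F1 P5 it had 0.888% in DMSO (0.880 to 0.903%, n = 4) and 0.891% in TBT (0.860 to 0.905%, n = 7), and in F1 P6 0.916% in DMSO (0.904 to 0.923%, n = 5) and 0.926% in TBT (0.908 to 0.937%, n = 7). Within each F1 population the DMSO and TBT ranges overlapped. In F3 the medians were 0.894% in both exposures of P4, 0.886% and 0.903% in P5, and 0.922% and 0.923% in P6. The ranges overlapped there too. In these bulk samples fewer cells of a type and less RNA per cell cannot be told apart.

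The RLTR17 group took a larger share in somatic than in germline cells. Over both exposures its share ranged from 2.85 to 3.13% in F1 P4 (median 3.00%), from 2.87 to 3.12% in P5 (3.01%) and from 3.38 to 3.59% in P6 (3.52%). In F1 the medians were 3.01% in DMSO and 2.98% in TBT in P4, 3.03% and 3.00% in P5, and 3.53% and 3.48% in P6, and the ranges of the exposures overlapped. In F3 the share ranged from 2.49 to 2.91% in P4 (2.73%), from 2.38 to 3.06% in P5 (2.73%) and from 3.51 to 3.61% in P6 (3.57%). In both generations every P6 library lay above every germline library, which is a description since the P6 tables were scaled apart and no test was made across tables. The RLTR20 group had the same order, with medians of 2.88%, 2.94% and 3.49% in F1 P4, P5 and P6, and 2.63%, 2.65% and 3.53% in F3. RLTR17B_Mm carried this pattern, with medians of 2.73%, 2.72% and 3.23% in F1 P4, P5 and P6. The RLTR17 species did not share it, with 0.179%, 0.201% and 0.169%. Within the RLTR11 group, RLTR11D ran the other way, at 0.0758% in F1 P4, 0.0682% in F1 P5 and 0.0376% in F1 P6, and the F1 P6 range of 0.0306 to 0.0413% lay below the germline ranges of 0.0701 to 0.0802% and 0.0656 to 0.0740%.

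**Figure D1:**
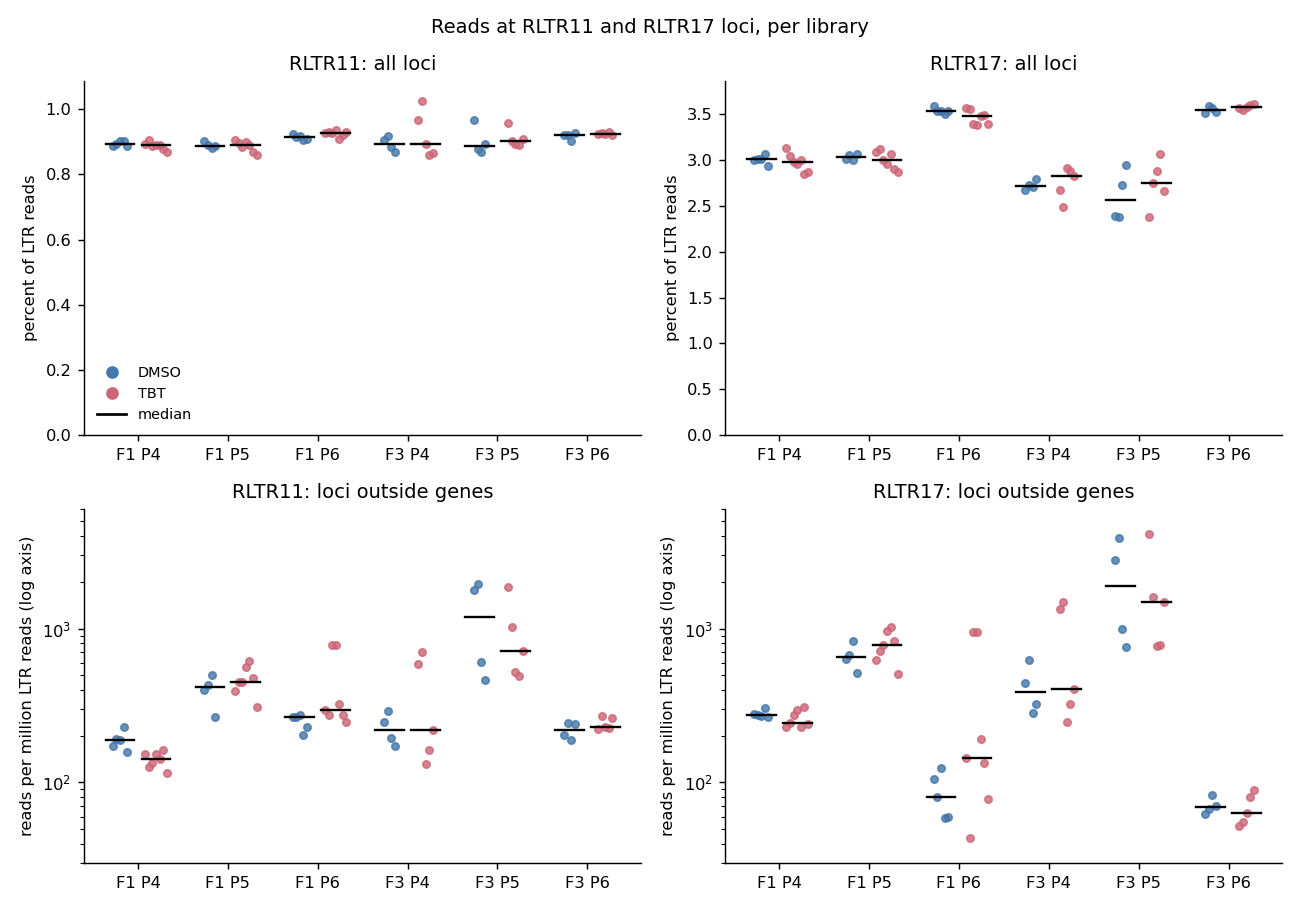
Share of LTR reads at RLTR11 and RLTR17 loci in each library, as percent of reads over all loci and as ppm of all LTR reads at loci outside genes (log axis). Points are libraries (DMSO blue, TBT red) and bars are medians. The RLTR17 share was highest in P6, whereas its reads outside genes were fewest there apart from F1 P6 TBT 7 and 8 at 949 and 946.

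Outside genes the picture was reversed for the RLTR17 group. Of its reads a median of 0.909% fell outside genes in F1 P4, 2.29% in F1 P5 and 0.324% in F1 P6, and 1.43%, 5.57% and 0.188% in F3. The RLTR11 group had 1.74%, 5.05% and 2.96% outside genes in F1 and 2.53%, 7.81% and 2.50% in F3. All LTR loci together had 2.19%, 5.29% and 1.5% in F1, and 3.22%, 11.2% and 1.34% in F3. Reads of both groups thus came mostly from loci inside genes in every population.

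RLTR17 loci outside genes had 273 ppm (parts of each library's LTR reads) in the median F1 P4 DMSO library (268 to 302), 653 in F1 P5 DMSO (516 to 834) and 80.8 in F1 P6 DMSO (58.7 to 124). The TBT medians were 244 (228 to 311), 779 (506 to 1025) and 144 (43.5 to 949). The P5 libraries were the highest and P6 the lowest, except for F1 P6 TBT 7 and 8, which had 949 and 946 and also stood apart over all loci. In F3 the DMSO medians were 385 in P4 (283 to 626), 1892 in P5 (758 to 3891) and 68.8 in P6 (62.0 to 82.6), and the TBT medians 404 (245 to 1492), 1484 (768 to 4121) and 63.2 (51.9 to 89.3). The F3 P5 libraries spread most widely, and the highest was the shallowest, P5 TBT 5.

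RLTR11 loci outside genes had 188 ppm in the median F1 P4 DMSO library (157 to 228), 414 in F1 P5 DMSO (266 to 499) and 265 in F1 P6 DMSO (204 to 274). The TBT medians were 143 (114 to 162), 452 (310 to 614) and 297 (248 to 783). In F3 the DMSO medians were 220 (174 to 291), 1194 (466 to 1934) and 220 (189 to 244), and those of TBT 219 (132 to 700), 710 (489 to 1854) and 230 (223 to 272). Unlike the RLTR17 group, somatic cells held as many RLTR11 reads outside genes as P4 did, which in F3 rested on a single locus described below. As a share of all reads outside genes, RLTR11 stood at 0.712% in F1 P4 (0.557 to 0.908%) and 1.82% in F1 P6 (1.13 to 2.73%), and at 0.577% in F3 P4 (0.513 to 0.752%) and 1.73% in F3 P6 (1.34 to 2.08%). RLTR17 stood at 1.25% in F1 P4 (1.16 to 1.33%) and 0.768% in F1 P6 (0.436 to 1.40%), and at 1.18% in F3 P4 (0.940 to 1.25%) and 0.508% in F3 P6 (0.425 to 0.588%).

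Most loci outside genes had no read. Counting a locus when any library of the population had a read, 12.8% of RLTR11 loci outside genes were seen in F1 P4, 37.9% in F1 P5 and 24.3% in F1 P6, and 10.2%, 29.7% and 6.84% in F3. For the RLTR17 group these shares were 8.23%, 25.2% and 15.3% in F1 and 6.03%, 19.5% and 2.90% in F3. For all loci outside genes they were 14.3%, 37.2% and 21.2%, and 12.1%, 29.8% and 5.98%. In F1 P4, 26 RLTR11 and 61 RLTR17 loci were needed for 50% of the reads outside genes, and 120 and 228 in F1 P5. For the RLTR17 group 392 loci were needed in F1 P6 and 14 in F3 P6. In somatic cells 1 RLTR11 locus gave more than that share in both generations.

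That locus was the RLTR11A element between Lsm2 and Vars, 10782 bases from Lsm2 and 3850 from Vars, which RefSeq places within D17H6S56E-5. It gave 54.3% of the RLTR11 reads outside genes in F1 P6 and 74.2% in F3 P6. Without it, the pooled F1 P6 libraries had 156 ppm of RLTR11 reads outside genes in place of 342 ppm, and the F3 P6 libraries 60.2 in place of 233. The pooled P4 libraries had 157 ppm in F1 and 216 in F3, and RLTR17 loci outside genes had 68.8 in F3 P6. Its normalized read count was 182, 197, 184, 154 and 183 in F1 P6 DMSO and ranged from 158 through a median of 189 to 229 in F1 P6 TBT. In F3 P6 it was 160, 185, 125 and 162 in DMSO and 167, 160, 163, 198 and 223 in TBT. Every somatic library was high, and the exposures overlapped. In F1 P4 the locus had 5.68, 4.00, 6.24, 11.3 and 0.457 in DMSO, and no germline library of either generation had more than 13.8.

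Other strong elements outside genes were the mirror image, read in germline cells and near 0 in most somatic libraries. The RLTR17B_Mm element next to CN725425 had 16, 19.7, 25, 24.1 and 21.5 in F1 P4 DMSO, a range of 23.5 to 33.0 around a median of 26.3 in F1 P4 TBT, and 0 in all 12 F1 P6 libraries. In F3 P4 it had 90.4, 68.9, 21.6 and 39.7 in DMSO and 110, 30.2, 38.2, 41.9 and 179 in TBT, against at most 0.414 in F3 P6. The highest F3 P4 libraries were TBT 9 and TBT 5, which had few reads.

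The RLTR17 element within Gm2560 had 14.2, 18.9, 10.6, 10.1 and 19.7 in F1 P4 DMSO and 17, 16.8, 17 and 19.5 in F1 P5 DMSO. In F1 P6 it had 0 in 11 of 12 libraries and 0.525 in the other. The RLTR17 element between Nlrc4 and Yipf4 had 6.97, 11.2, 4.85, 6.41 and 10.3 in F1 P4 DMSO, and at most 0.657 in F1 P6. Both were thus at or near 0 in somatic cells and overlapped between P4 and P5.

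The RLTR11A element near Ly6c2 had 3.61, 3.74, 3.93, 2.22 and 0.915 in F1 P4 DMSO and 20.6, 12.4, 13.6 and 7.57 in F1 P5 DMSO, so that P5 lay above P4. In F3 P5 it had 159, 191, 20.7 and 15.7 in DMSO, and the libraries with the highest values were again DMSO 1 and 2. In F1 P6 it was at 0 to 1.15 in DMSO and 0 to 8.82 in TBT, and its highest somatic value fell in TBT 8.

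**Figure D2:**
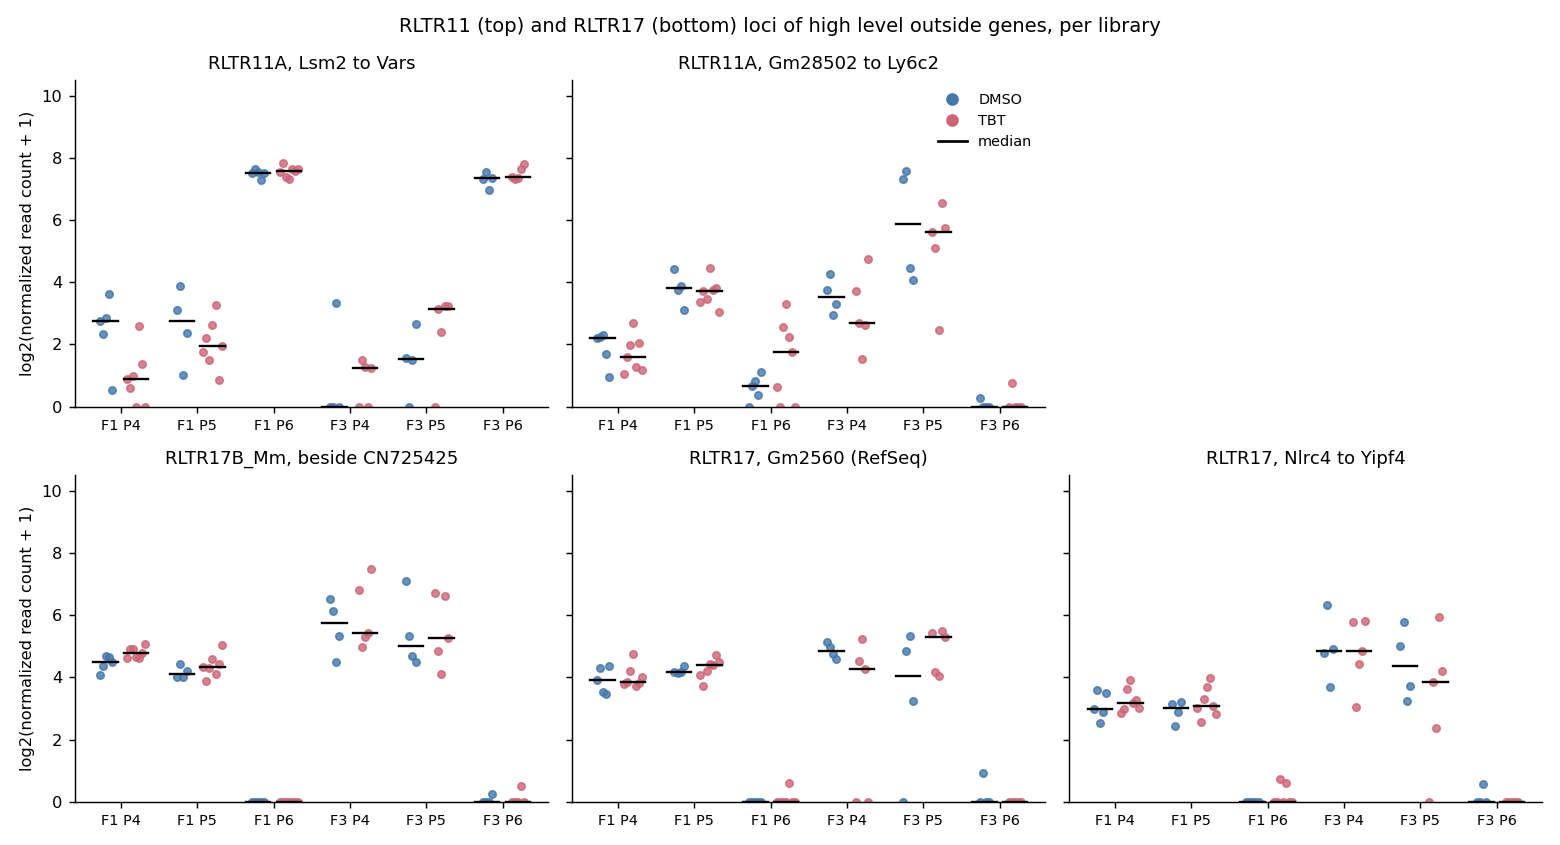
Normalized read count, as log2(value + 1), at 5 RLTR11 and RLTR17 elements outside genes in every RNA library, titled by neighbouring genes. Points are libraries coloured by exposure. The RLTR11A element between Lsm2 and Vars was highest in P6, and the other 4 were at or near 0 in P6, except the RLTR11A element near Ly6c2, which reached 8.82 in F1 P6 TBT.

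Inside genes, LTR values repeated each other. In the intron of Atp5j2, which encodes a subunit of mitochondrial ATP synthase, RLTR11B loci at chr5:145184984-145185114 and chr5:145185260-145185634 had 881, 809, 934, 926 and 1219 reads in F1 P4 DMSO at both loci. In the intron of Ndufa7, which encodes a subunit of respiratory complex I, neighbouring RLTR17B_Mm loci at chr17:33832201-33832322 and chr17:33832323-33832435 had 849, 702, 858, 721 and 1039 reads at both. These were the intronic members of highest mean level. Among intronic loci with at least 5 reads a library on average, 314 of 903 RLTR11 loci (34.8%) and 1489 of 3511 RLTR17 loci (42.4%) had the same reads in all 23 F1 germline libraries as another LTR locus between the same exons, against 37.1% of all LTR loci. In F1 somatic cells the shares were 46.3% and 54.9%, against 47.2% of all LTR loci. No member outside genes had such a neighbour. Members with the same reads as a neighbour are not separate measurements.

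The next comparison set P5 against P4 in F1, over 11 and 12 libraries of both exposures, with limma on log2(value + pseudocount). Summed over all loci of a species, RLTR11A2 had 3536 ± 138 (SD, n = 5) in P4 DMSO and 3155 ± 91.1 (n = 4) in P5 DMSO, and 3715 ± 77.0 and 3226 ± 146 (n = 7 each) in TBT. It was lower in P5 by a log2 difference of -0.18 (SE 0.0248, limma FDR 1.39e-06). RLTR11D had 762 ± 72.4 and 647 ± 18.6 in DMSO, and was lower by -0.28 (SE 0.0532, limma FDR 9.39e-05). RLTR11A (-0.12, FDR 0.000836) and RLTR11B (-0.12, FDR 0.0231) were also lower, whereas RLTR11C_MM (-0.11, SE 0.0518) had an FDR of 0.0741 in limma.

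In the RLTR17 group RLTR17B_Mm and RLTR17C_Mm were lower in P5. RLTR17B_Mm had 28008 ± 897 (n = 5) in P4 DMSO and 25600 ± 877 (n = 4) in P5 DMSO, a log2 difference of -0.15 (SE 0.0253, limma FDR 2.17e-05). RLTR17C_Mm had 182 ± 7.63 and 143 ± 11, a difference of -0.32 (SE 0.0475, limma FDR 6.98e-06). The RLTR17 species had 1876 ± 48.3 and 1903 ± 72.6 (+0.02, SE 0.0374, FDR 0.628), and RLTR17D_Mm 802 ± 37.9 and 763 ± 27.6 (-0.07, SE 0.0361, FDR 0.0923), and neither passed. Thus 6 of 9 member species were lower in P5 and none higher, where 40.2% of all 677 species were lower, 22.6% were higher and the median species moved by -0.06. These directions depended on scaling: with the same total per library RLTR11D (still lower) was the only RLTR11 species that passed, RLTR17C_Mm was lower by -0.16, and the RLTR17 species (+0.17) and RLTR17D_Mm (+0.08) were higher. The shares of all species under that scaling are not given here.

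Restricted to loci outside genes, all 9 species were higher in F1 P5 than in P4. The RLTR17 species had 122 ± 13.4 (n = 5) in P4 DMSO and 276 ± 35.8 (n = 4) in P5 DMSO, with 122 ± 27.7 and 333 ± 85.8 (n = 7) in TBT. Its log2 difference was 1.3 (SE 0.123, limma FDR 2.25e-10), and no P5 library overlapped the P4 range, since P4 spanned 94.3 to 159 and P5 236 to 463. RLTR17D_Mm differed most, with 9.89 ± 4.77 in P4 DMSO, 42.3 ± 12.2 in P5 DMSO and a difference of 2.25 (SE 0.275, FDR 2.12e-08). RLTR17B_Mm was higher by 1.10 (SE 0.114) and RLTR17C_Mm by 1.92 (SE 0.449, FDR 0.000292). The RLTR11 species were higher by 1.29 (RLTR11A), 1.05 (RLTR11A2), 1.56 (RLTR11B), 1.21 (RLTR11C_MM) and 1.62 (RLTR11D), with limma FDRs from 3.91e-10 to 1.12e-06. This was common to most LTRs, as 87.5% of 663 species were higher outside genes and the median species moved by 1.27. The summed levels of markers of other cell types also had other medians in these populations, with no test. Sertoli cell markers had medians of 18.8 in P4 DMSO and 60.1 in P5 DMSO, and of 18.8 and 32.3 in TBT. Endothelial markers had 22.4 and 60.0 in DMSO and 36.2 and 59.2 in TBT, whereas the peritubular and stromal list had 24.8 and 17 in DMSO and 19.2 and 16.1 in TBT. Their part in the differences between P5 and P4 was not tested.

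**Figure D3:**
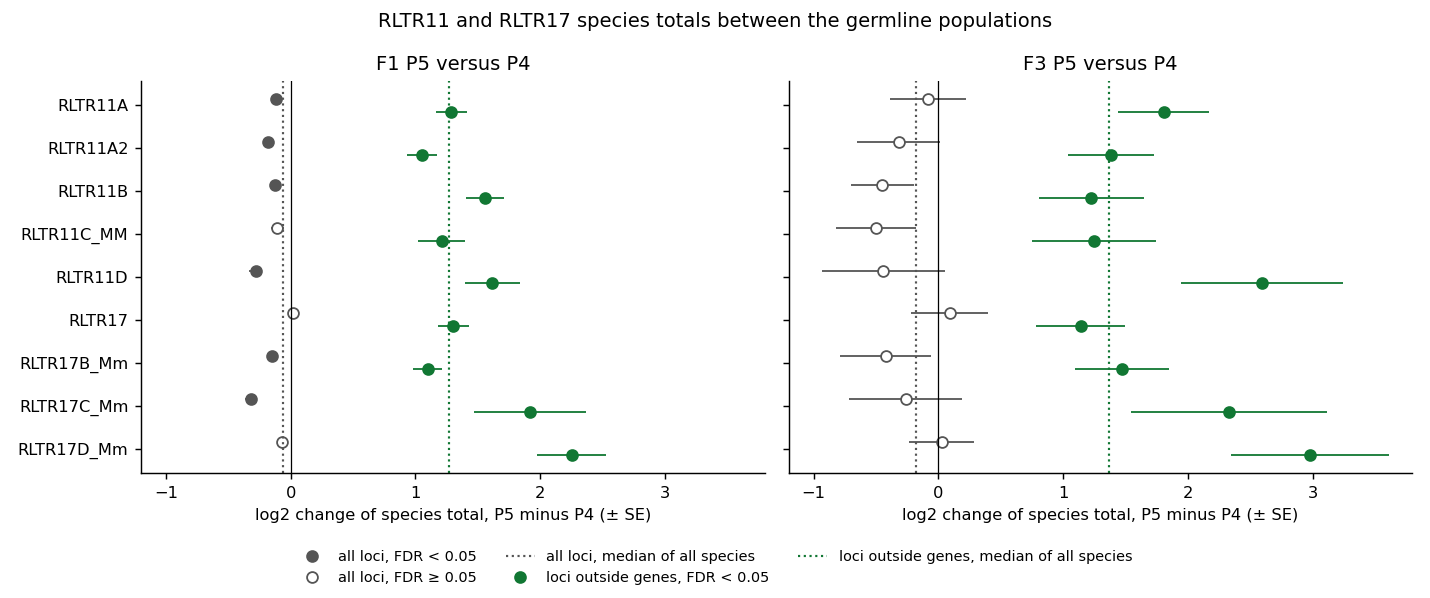
Log2 difference between P5 and P4 (± SE) in the summed normalized read count of each of the 9 species, over all loci (grey) and over loci outside genes (green), in F1 and F3. Filled points passed an FDR of 0.05 and dotted lines are the medians of all species. In F1 all 9 species were higher in P5 outside genes, from 1.05 to 2.25, and 6 were lower over all loci.

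Locus by locus, 156 of 923 RLTR11 loci tested in F1 (16.9%) were higher in P5 and 188 (20.4%) lower. Of 3656 RLTR17 loci 529 (14.5%) were higher and 838 (22.9%) lower. Over all 101401 loci tested the shares were 17% higher and 20.3% lower, so that both groups stood near the background. The split turned with the scaling, since with the same total per library 188 RLTR11 loci were higher and 101 lower, and 657 RLTR17 loci higher and 363 lower, as 20539 were higher and 10777 lower over all loci. It also moved with the filter. Without a filter 227 RLTR11 loci were higher and 118 lower, and 753 and 446 RLTR17 loci, as 26277 and 13209 of all. At a mean worth at least 20 reads these were 61 and 183, and 165 and 660, as 5109 and 19521 of all. DESeq2 called 184 RLTR11 loci higher and 103 lower, and 629 RLTR17 loci higher and 507 lower, as it called 19576 of all loci higher and 11392 lower. Outside genes, 11 of 30 RLTR11 loci tested were higher and 2 lower, and 19 of 47 RLTR17 loci higher and 1 lower, as 1954 and 144 of all 4565 were. Only those few members outside genes passed the filter on low values, out of 4866 and 16560. The filter took the mean over P4 and P5, so a locus could pass through P5 alone. Fitted alone, F1 P4 kept 20 RLTR11 and 28 RLTR17 loci outside genes, and F1 P5 kept 64 and 126. The part of the filter in the excess of higher loci was not tested.

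Of the called loci, 33 of 344 RLTR11 loci (9.59%) and 107 of 1367 RLTR17 loci (7.83%) had no overlap between the P4 and P5 libraries, as had 7.66% of all 37851 called loci. The RLTR11A2 element near Flt1 had 0, 0.267, 0.231, 0.985 and 0 in P4 DMSO and 0 to 0.597 in P4 TBT. In P5 it had 3.11, 1.40, 3.27 and 1.35 in DMSO and 1.52 to 8.35 (median 2.38) in TBT. All F1 P5 libraries lay above all F1 P4 libraries, with a log2 difference of 2.83 (SE 0.399, limma FDR 1.22e-06), and all 12 F1 P6 libraries were at 0. The filter was a mean of 1.14 over P4 and P5. The element passed it through P5, with F1 means of 0.215 in P4 and 2.89 in P5. In F3 the populations overlapped, with 0 to 0.932 in P4 and 0 to 6.89 in P5.

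The RLTR17 element between Eva1a and Gm31861 had 0, 0.267, 0, 0.493 and 0 in P4 DMSO, and 0 in 6 of 7 P4 TBT libraries with 0.521 in the other. In P5 it had 1.91, 0.700, 2.76 and 0.841 in DMSO and 1.67 to 9.33 (median 3.62) in TBT. It was read in every F1 P5 library and lay above F1 P4 without overlap (3.02, SE 0.401, limma FDR 4.41e-07). It passed the filter through P5, with F1 means of 0.107 in P4 and 3.21 in P5. In F3 it ran from 0 to 5.87 in P4 and from 0 to 30.9 in P5, and the populations overlapped. The P6 libraries were all at 0 in both generations.

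Loci within genes moved in both directions. The RLTR17B_Mm locus in the intron of Col24a1, a fibrillar collagen gene, had 0 in all P4 DMSO libraries and 3.35, 2.57, 2.93 and 1.18 in P5 DMSO, with 0 to 0.712 and 0.869 to 5.42 in TBT, and a log2 difference of 3.34 (SE 0.389, limma FDR 3.67e-08). The RLTR11A2 locus in the intron of Col23a1, a transmembrane collagen gene, had no read in any of 12 P4 libraries and 158 reads over 11 P5 libraries, at least 47.3-fold higher against a floor of 3 reads over the P4 group. Its fitted difference of 3.09 (SE 0.499, limma FDR 1.01e-05) depends on the pseudocount. The Col24a1 and Col23a1 loci also passed the filter through P5, with P4 means of 0.0802 and 0 and P5 means of 2.76 and 2.78. Col23a1 also had 42 reads over the F1 P6 DMSO libraries.

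On the lower side, the RLTR11B locus in the intron of Anxa7, an annexin gene, had 34.1, 24.8, 26.1, 31.3 and 30.6 in P4 DMSO and 20.8, 21.7, 17 and 18.7 in P5 DMSO. The TBT libraries ran from 25.4 to 36.7 in P4 and from 14.6 to 18.4 in P5, and the populations did not overlap (-0.73, SE 0.0975, limma FDR 4.88e-07). The RLTR11A2 locus in Med15, which encodes a subunit of the Mediator complex, had 9.03, 9.07, 9.01, 10.1 and 10.7 in P4 DMSO and 3.83, 3.73, 3.79 and 5.89 in P5 DMSO (-0.96, SE 0.144, limma FDR 3.41e-06). The RLTR17B_Mm locus in Maob, which encodes monoamine oxidase B, was lower by -0.86 (SE 0.163, limma FDR 9.51e-05), from 7.78 to 16.9 in P4 and from 3.11 to 7.69 in P5. A 24-base RLTR17B_Mm locus in the intron of Klhdc4 was lower by -0.85 (SE 0.101, limma FDR 4.95e-08).

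In F3 the same comparison called few members by limma. Of 873 RLTR11 loci 7 were higher in P5 and 0 lower, and of 3045 RLTR17 loci 7 were higher and 0 lower, against 0.985% higher and 0.0112% lower of all 98076. On the recovered reads, quasi-likelihood edgeR called 38 RLTR11 and 69 RLTR17 loci, the likelihood ratio test 61 and 135, and DESeq2 70 and 159, as they called 5254, 7750 and 7493 of all loci. Leaving out 1 library gave 1 to 26 and 1 to 50 calls by limma. Without the 5 libraries of fewest reads, 47 of 938 RLTR11 loci were higher and 15 lower, and 128 of 3577 RLTR17 loci higher and 62 lower, against 4.76% and 1.55% of 105986. Summed over all loci, none of the 9 species passed in F3 (log2 differences -0.50 to 0.09, limma FDR 0.584 to 0.978), where 2.66% of 677 species did. Without the 5 libraries RLTR11D (-0.28, limma FDR 0.0280) and RLTR17B_Mm (-0.17, limma FDR 0.0362) passed. The share of all species that passed in that fit is not given here, so these calls have no background.

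Outside genes all 9 species were higher in F3 P5 as well. The differences ran from 1.14 for the RLTR17 species (SE 0.356, limma FDR 0.0100) to 2.98 for RLTR17D_Mm (SE 0.632, limma FDR 0.0007), against 54.3% of 661 species higher and a median of 1.36. Sertoli cell markers had medians of 9.58 in F3 P4 and 15.6 in F3 P5, endothelial markers 27.4 and 55.9, and the peritubular and stromal list 21.1 and 12.6, and their part was not tested. Of the endothelial genes, Pecam1 had medians of 18.7 in F3 P5 and 8.62 in F3 P6, Tek 27.0 and 28.8, and Cdh5 5.57 and 89.3. RLTR11D, at 2.60 (SE 0.650, FDR 0.00237), was the highest of the RLTR11 group and RLTR11B, at 1.23 (SE 0.423, FDR 0.0179), the lowest. RLTR17C_Mm (2.33, SE 0.785, limma FDR 0.0158) had an FDR of 0.0516 without the 5 libraries, and the other 8 still passed. The 54.3% of all species is from the fit with all libraries.

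At single loci in F3, the RLTR11A element over an exon of Zfp950, a zinc finger gene, had no read in any of 9 P4 libraries. In P5 it had 13.3, 22.3, 1.52 and 0.693 in DMSO and 0, 3.19, 0.963, 5.21 and 7.32 in TBT, so that TBT 5 shared the 0 of P4. It was at least 50.4-fold higher in P5 against a floor of 3 reads over P4 (limma FDR 0.0149). This bound leaned on DMSO 1 and 2, the highest P5 values, which came from libraries of few reads. In F3 P6 the locus had 0.991 to 7.59 (median 3.72), against a median of 3.19 in F3 P5. The part of somatic RNA in its P5 values was not tested. The RLTR17D_Mm locus in the intron of Cst9, a cystatin gene, had 13, 1.47, 0.492 and 0.234 in P4 DMSO and 30.5, 1.71, 0.830 and 5.77 in P5 DMSO, with 0 to 0.699 and 9.95 to 54.5 in TBT (3.68, SE 0.865, limma FDR 0.0251). The P4 and P5 libraries overlapped. The same locus had 220 to 329 in F1 P6 DMSO, and the part of somatic RNA in these germline values was not tested.

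Whether TBT acted differently in P5 than in P4 was tested with an interaction term in limma. No member passed in either generation, where 0.000986% of 101401 loci passed in F1 and 0% in F3. At an unadjusted p under 0.05 there were 41 RLTR11 and 154 RLTR17 loci in F1, among 4384 of all 101401 loci, and 18 and 37 in F3, among 1364 of all 98076. DESeq2 and the edgeR likelihood ratio test each called 1 RLTR11 locus in F3 and none of the RLTR17 group, among 27 and 7 of all loci.

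TBT was then set against DMSO within each population and generation. No species total of either group passed in any of the 6 comparisons by limma, and 0% of all species passed in F1 P4, P5 and P6 and in F3 P4, P5 and P6. The lowest FDR of a member was 0.448, in F1 P4. At an unadjusted p under 0.05 there were RLTR11A2 in F1 P4, with 3536 ± 138 (SD, n = 5) in DMSO and 3715 ± 77.0 (n = 7) in TBT (limma, log2 difference 0.07, SE 0.0321), and RLTR17C_Mm in F3 P6, with 152 ± 5.99 (n = 4) and 138 ± 8.77 (n = 5) (limma, -0.14, SE 0.0592). All F1 differences lay within -0.01 and 0.12. In F3 P4 they ran from -0.86 to -0.20 around a median of -0.41 over all species, in F3 P5 from -0.36 to 0.06 around -0.18, and in F3 P6 from -0.14 to 0.04. Without TBT 5 and 9, the F3 P4 libraries of fewest reads, the F3 P4 differences ran from -0.48 to 0.15 in the RLTR11 group and from -0.0438 to 0.28 in the RLTR17 group, so the common direction rested on those libraries. Without DMSO 1 and 2 and TBT 5, those of F3 P5 ran from 0.0609 to 0.33 and from -0.0415 to 0.23. Outside genes RLTR11A2 (-0.42) and RLTR11D (-0.99) were lower in F1 P4 TBT with limma FDRs of 0.880.

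**Figure D4:**
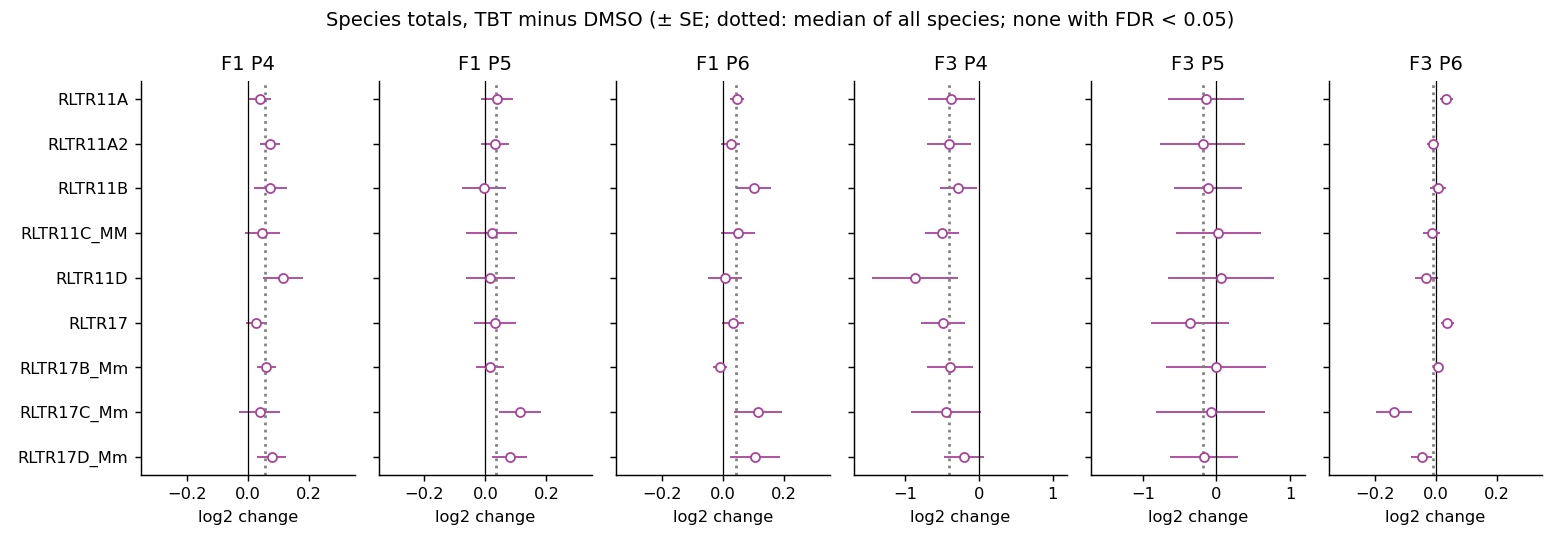
Log2 difference between TBT and DMSO (± SE) in the summed normalized read count of the 9 species in 6 panels, 1 for each generation and population. Dotted lines are the medians of all species, and the F3 P4 and F3 P5 panels have a wider scale. None passed an FDR of 0.05, and in F3 P4 all 9 lay between -0.86 and -0.20, but not without TBT 5 and 9.

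At single loci 1 member differed between TBT and DMSO. In F1 P4, 0 of 840 RLTR11 and 0 of 3366 RLTR17 loci passed in limma (54 and 224 at an unadjusted p under 0.05), against 0% of 91621 loci. In F1 P5, 0 of 1114 and 0 of 4380 passed (69 and 230), against 0.0106% of 122303. In F1 P6, 0 of 840 and 0 of 3226 passed (34 and 139), against 0.00341% of 88037. In F3 P4, 0 of 776 and 0 of 2840 passed (14 and 39), and in F3 P5, 0 of 933 and 0 of 3151 (8 and 12), against 0% of 86416 and 0% of 105423. In F3 P6, 0 of 999 RLTR11 and 1 of 3952 RLTR17 loci passed (64 and 309), against 0.0343% of 104835. Among all loci tested, an unadjusted p under 0.05 was reached by 6496 in F1 P4, 8421 in F1 P5 and 3244 in F1 P6. In F3 it was reached by 1424 in P4, 1066 in P5 and 8346 in P6. Quasi-likelihood edgeR on the recovered reads called the same numbers, namely 0 in all but 1 RLTR17 locus in F3 P6. The edgeR likelihood ratio test called 5 RLTR17 loci in F1 P4, 4 RLTR11 and 5 RLTR17 loci in F1 P5, 24 and 56 in F3 P5 and 15 RLTR17 loci in F3 P6, and DESeq2 called 1 and 1 in F1 P5 and 5 RLTR17 loci in F3 P6. Over all loci the likelihood ratio test called 86 in F1 P4, 388 in F1 P5, 3326 in F3 P5 and 354 in F3 P6, and DESeq2 140 in F1 P5 and 84 in F3 P6. Median log2 differences of the RLTR11 and RLTR17 loci stayed near those of all loci, at 0.0448 and 0.0387 against 0.0391 in F1 P4, -0.69 and -0.72 against -0.69 in F3 P4, and 0.21 and 0.27 against 0.15 in F3 P5. These F3 directions rested on the libraries of fewest reads, since without TBT 5 and 9 the F3 P4 medians were 0.46 and 0.51 against 0.38 over all loci, and without DMSO 1 and 2 and TBT 5 those of F3 P5 were -0.0561 and -0.0583 against -0.0291. DESeq2 gave 0.0946 and 0.0894 in F3 P4, and -0.11 and -0.0290 in F3 P5.

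The RLTR17B_Mm locus that passed lies at chr10:27252684-27252788, in an intron of Lama2, the laminin α2 chain gene of basement membranes. In F3 P6 it had 11.7, 15.3, 9.18 and 14.8 in DMSO and 25.7, 23.3, 18.9, 26.9 and 22.5 in TBT. All 5 TBT libraries lay above all 4 DMSO libraries, and the log2 difference was 0.89 (SE 0.156, limma FDR 0.0326). In the same libraries Leydig markers ran from 36.5 to 62.8 in DMSO and from 25.2 to 36.6 in TBT, endothelial markers from 94.3 to 128 and from 127 to 159, and germ cell markers from 14.4 to 184 and from 16.3 to 22.8, and their part in this difference was not tested. In F1 P6 it had 6.30 to 12.5 (median 9.88, n = 5) in DMSO and 0.385 to 20.1 (median 8.40, n = 7) in TBT, and the exposures overlapped. Germline libraries had at most 0.841. Leaving out 1 library at a time ended the call in 6 of 9 fits, with differences from 0.74 to 0.99.

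Members with the smallest p elsewhere did not pass. In F1 P4 the RLTR11A element between Lsm2 and Vars had 5.68, 4.00, 6.24, 11.3 and 0.457 in DMSO and 0 to 4.99 (median 0.853) in TBT, with a log2 difference of -2.19 (SE 0.667, limma FDR 0.613). This is the somatic locus described above. The RLTR17B_Mm locus in Igfbp7, which encodes a secreted protein that binds insulin-like growth factors, had 14.7, 10.1, 16.6, 17.7 and 7.09 in DMSO and 5.37 to 8.07 in TBT (-0.90, SE 0.219, limma FDR 0.582), and the same locus had 212 to 265 in F1 P6 DMSO. Leydig cell markers had a median of 91.3 in F1 P4 DMSO and 10.1 in F1 P4 TBT, and their part in these values was not tested.

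In F1 P5 the RLTR11D element 1499 bases from Lrguk had 0, 0, 3.96 and 0 in DMSO and 1.96 to 6.15 (median 3.34) in TBT (3.22, SE 0.662, limma FDR 0.137). The RLTR17D_Mm locus in Cst9 had 13.9, 53.2, 34.6 and 11.8 in DMSO and 2.54 to 13.6 (median 6.26) in TBT (-1.77, SE 0.388, limma FDR 0.173). It had 195 to 600 in F1 P6. Sertoli cell markers had a median of 60.1 in F1 P5 DMSO and 32.3 in TBT, and Leydig markers 34.4 and 23.5, and their part in these values was not tested. In F1 P6 the RLTR11A locus in the intron of Kcng2, a potassium channel subunit gene, had 12.6 to 18.2 (median 16.1) in DMSO and 6.17 to 12.5 (median 11.4) in TBT, without overlap (-0.59, SE 0.187, limma FDR 0.999). Nor did the groups overlap at the RLTR17B_Mm locus in Vps50, with 6.90 to 9.62 in DMSO and 3.39 to 5.76 in TBT (-0.78, limma FDR 0.999). In F3 P6 they did not overlap at the RLTR11A locus in the long noncoding gene Gm48228, with 24.0, 23.4, 15.4 and 20.3 in DMSO and 28.3, 32.1, 28.6, 32.7 and 26.7 in TBT (0.53, SE 0.135, limma FDR 0.252).

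In F3 P4 the RLTR17B_Mm locus in Psmb2, a proteasome subunit gene, had 822, 840, 453 and 521 in DMSO and 283, 319, 467, 466 and 354 in TBT (-0.78, SE 0.240, limma FDR 0.870). The RLTR11A element 39047 bases from Cdc42ep3 had 7.35, 6.84, 2.95 and 0.935 in F3 P4 DMSO and 0, 0, 0.469, 1.40 and 0 in TBT (-3.08, SE 1.09, limma FDR 0.870), and the exposures overlapped. In F3 P5 the RLTR17D_Mm locus in the intron of Cox16, a gene for assembly of cytochrome c oxidase, had 8.86, 95.6, 9.96 and 0 in DMSO and 0, 1.47, 0.321, 0 and 0 in TBT (-3.88, SE 1.34, limma FDR 1.00). Its highest library was DMSO 2, and the exposures overlapped. In F3 P5 the RLTR11A2 element 1 base from Gm37218 had 0 in all 4 DMSO libraries and 1.91, 5.40, 4.98, 10.01 and 8.50 in TBT. It was at least 25.5-fold higher against a floor of 3 reads over the DMSO group, with a limma FDR of 1.00 over all loci tested. In F3 P4 the same element had 23.5, 11.2, 20.4 and 10.05 in DMSO and 0, 0.663, 5.16, 10.2 and 14.3 in TBT, so that the order of the exposures was not the same.

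MBD sequencing measured methylated DNA in somatic P6 cells in windows of 100 bases, with 701493 to 1913353 counts a library. RLTR11 loci overlapped 195 of 154773 windows in F1 and 214 of 164382 in F3, and RLTR17 loci 418 and 449. The tables used here hold part of the genome's windows, by a filter that the sources do not give, so the values describe these windows and not the methylation of each whole group. Windows at RLTR11 loci had a mean of 5.20 ± 0.143 CPM (SD, n = 3) in F1 DMSO and 5.37 ± 0.0943 (n = 4) in F1 TBT, and those at RLTR17 loci 7.50 ± 0.176 and 7.30 ± 0.219, against 6.46 over all windows. In F3 RLTR11 windows had 6.5 ± 0.147 (n = 5) and 6.56 ± 0.226 (n = 7), and RLTR17 windows 6.30 ± 0.170 and 6.46 ± 0.252, against 6.08.

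**Figure D5:**
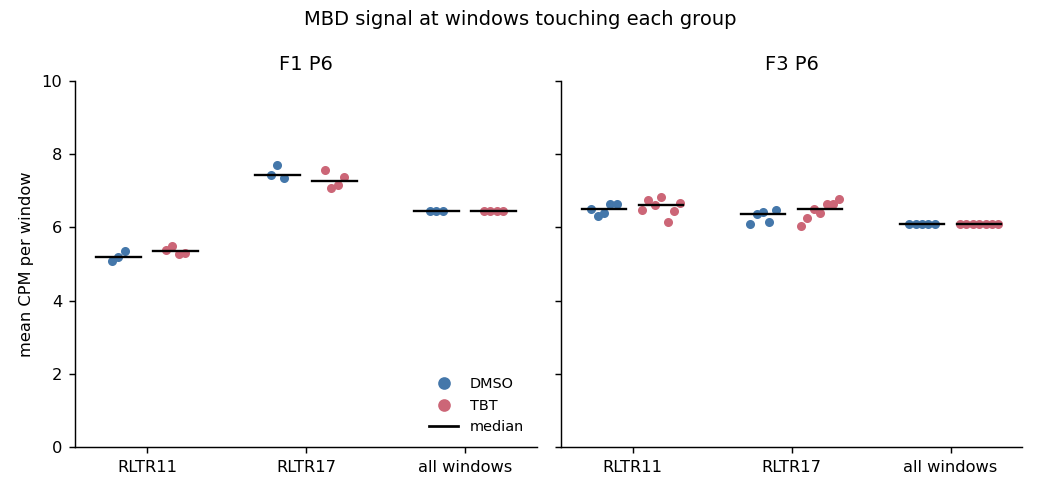
Mean MBD signal per 100-base window (CPM) at RLTR11 windows, RLTR17 windows and all windows in each F1 P6 and F3 P6 library. Points are libraries, and the value over all windows is fixed by the CPM scaling. Among the sets shown, RLTR17 windows were highest in F1, at 7.50 in DMSO and 7.30 in TBT. RLTR13 windows, not shown, had 8.29 and 8.24 in F1, and RLTR20 windows 7.38 and 7.42.

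No window of either group passed edgeR's quasi-likelihood test. Of 27 RLTR11 and 117 RLTR17 windows tested in F1, 0 and 9 had an unadjusted p under 0.05, and of 46 and 137 in F3, 3 and 10 did, where 1730 of all 34559 windows did in F1 and 2469 of all 47563 in F3. At an FDR of 0.05 the test called 0.0318% of all windows in F1 and 0% in F3. DESeq2 also called none (0 and 3 in F1 and 1 and 0 in F3 at an unadjusted p under 0.05, where 568 and 915 of all windows were). The RLTR17B_Mm window at chr2:10517101-10517200, with 58 bases inside the locus and over the microRNA gene Mir297a-4 within the Polycomb gene Sfmbt2, had 6, 10 and 8 counts in F1 DMSO and 22, 25, 15 and 36 in F1 TBT. All TBT libraries were above DMSO after scaling (log2 difference 0.79, edgeR FDR 0.954). The RLTR17B_Mm window outside genes at chr8:55121301-55121400, with 17 bases inside the locus, had 34, 25 and 34 counts in DMSO and 38, 32, 28 and 50 in TBT, which came to 34.3 to 37.2 CPM and 18.9 to 31.8 CPM (-0.56, edgeR FDR 0.937). Neither separation passed the test over all windows. In F3 the RLTR11C_MM window outside genes at chr10:42025901-42026000, with 90 bases inside the locus, had 10.1 to 17.9 CPM in DMSO and 6.23 to 12.8 CPM in TBT (-0.59, edgeR FDR 0.916), and the groups overlapped. Other windows of smallest p passed no test either. In F1 they were RLTR11A2 windows in introns of Cmss1 (0.64, edgeR FDR 0.974) and of Wwp1 (-0.51, edgeR FDR 0.997). In F3 they were RLTR17B_Mm windows in Tbxas1 (0.44, edgeR FDR 0.928) and outside genes at chr2:38408601-38408700 (-0.62, edgeR FDR 0.943).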

How the data were processed

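The authors mapped mRNA-seq reads (oligo-dT, without strand marking) and counted them at LTR loci with a modified ERVmap, then deposited normalized values, here called signal, in 4 tables, where germline and P6 tables were scaled apart. The submitters' processing notes name Trim Galore, STAR and edgeR without versions, and mm10. Every value was a whole multiple of what 1 read is worth (100% within a tolerance of 0.02), so whole reads were recovered. The deposited MBD tables hold counts per window. How reads mapping to several places were treated is not given in the sources used here. Samples were grouped by the labels.

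Values were tested with limma 3.58.1 (R 4.3.3) on log2(value + 1 read's worth, 0.181 to 0.294), keeping loci with a mean of at least 5 such units, at an FDR of 0.05 over all loci. Fold changes are on this scale and understate changes of low loci. MBD windows were tested with edgeR 4.0.16 (quasi-likelihood), and DESeq2 1.42.0 was an alternative. Places came from bedtools 2.31.1 with gencode annotation, and names and sequences from RefSeq GRCm38. Differences between libraries of 1 group exceeded counting error in all 137 pairs (chi-square per degree of freedom 1.61 to 43.6). Scripts were tested on simulated data. Members, lists and tests were chosen with earlier results of these data known. The text names every member species. It names, for each group and comparison, up to 2 loci each way of largest change among those past the threshold with groups apart, or else the locus of smallest p, and the 3 loci outside and 2 inside genes of highest mean level. In F3 P5 against P4 no called member had its groups apart, and the member of smallest p is named. MBD windows follow the same rule, 1 each way. Of these, 1 locus and 1 window are not reported here.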

Additional observations from a re-analysis of the deposited data

Results flagged for a closer look

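In groups of 4 to 10 libraries, a value was singled out when its gap to the nearest library was large against the range of its group (Dixon's 95% critical value). This held in 17 of 162 groups, and chance alone singles out about 1 in 20 groups. F3 P5 TBT 5, the library of fewest reads, accounted for 6 of them. It had the highest RLTR11 share of reads, 0.957% against 0.909% in the nearest library, and the highest count of RLTR17 reads outside genes, 4121 ppm of all LTR reads against 1601. Its summed normalized read counts were the lowest for RLTR11A (636 against 2675), RLTR11D (78.4 against 672), RLTR17B_Mm (4769 against 27577) and RLTR17D_Mm (278 against 895). The part of its depth in these values was not tested.

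F1 P6 TBT 11 was the highest of its group for 4 species, namely RLTR11A2 (4052 against 3676), RLTR11B (1848 against 1529), RLTR11C_MM (1220 against 979) and RLTR17D_Mm (1346 against 1035). The other cases were single ones. F3 P6 DMSO 3 had the lowest RLTR11 share (0.902% against 0.922%) and F1 P4 DMSO 44-3 the most RLTR17 reads outside genes (302 ppm against 278). F1 P6 DMSO 3 was highest for RLTR11A (2748 against 2673), F3 P5 DMSO 2 lowest for RLTR11A2 (2234 against 3443) and F1 P4 DMSO 48-4 highest for RLTR11B (1569 against 1462). F1 P4 DMSO 44-1 was lowest for the RLTR17 species (1792 against 1880) and F3 P4 DMSO 4 highest for RLTR17C_Mm (178 against 143).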

How the results depend on the processing

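Values that answer a comparison were counts of calls and median differences, each set against the main fit under 1 alternative. Apart from those with 1 library left out, 327 stayed the same, 38 counts rose, 9 counts fell and 16 medians moved. A count stayed the same when equal to the main count or within 1.5 times it, whichever members were called. Its split into higher and lower could still turn. A median stayed the same within the SD between libraries. The cause of the changes was not tested. Of values for named loci 511 of 532 kept direction and call, and all 124 for named windows did. Of 1449 for species 8 called ones reversed and 168 in all changed direction.

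TBT calls differed by method. F1 P4 RLTR17 had 5 by the likelihood ratio test. F1 P5 RLTR11 had 6 without a filter, 4 by the likelihood ratio test and 1 by DESeq2, and RLTR17 had 14, 5 and 1. Without a filter 0.145% of RLTR11 and 0.0970% of RLTR17 loci were called there, against 0.202% of all loci. F3 P5 had 24 RLTR11 and 56 RLTR17 calls by the likelihood ratio test. F3 P6 RLTR17 had 7 without a filter (0.0851%, against 0.0367% of all loci), 15 by the likelihood ratio test, 5 by DESeq2 and 0 in the fit on loci outside genes. Leaving out 1 library gave 0 to 1 and 0 to 2 calls in F1 P5, and 0 to 1 and 0 to 12 in F3 P6.

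F1 P5 against P4 called 12 RLTR11 and 19 RLTR17 loci in the fit outside genes and 825 RLTR17 loci at a mean of at least 20 units, and 317 to 357 and 1239 to 1403 with 1 library left out. The fit outside genes called 40.4% of all loci, against 40.0% of RLTR11 and 40.4% of RLTR17 loci, and a mean of at least 20 units gave 57.5% of all and 57.9% of RLTR17 loci. In F3, RLTR11 had 1 call without a filter, 0 at a mean of at least 20 units, 38 by quasi-likelihood, 61 by the likelihood ratio test, 70 by DESeq2, 12 outside genes, and 62 without the 5 libraries of fewest reads, an alternative chosen after seeing the data. RLTR17 had 15 with a pseudocount of 4 units, 0, 1, 18 with the same total per library, 69, 135, 159, 14 and 190. Of all F3 loci 0.0949% were called without a filter, 0.583% at a mean of at least 20 units, 1.22% with a pseudocount of 4 units, 1.40% with the same total and 13.4% outside genes. Leaving out 1 library gave 1 to 26 and 1 to 50. The interaction in F3 had 1 RLTR11 call by the likelihood ratio test and 1 by DESeq2.

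Species called in F1 P5 against P4 were 1 for RLTR11 with the same total. For RLTR17 they were 4 outside genes and 4 over the loci, inside and outside genes, that passed the filter. With 1 library left out they were 3 to 5 and 2 to 3. In F3 they were 1 and 1 with the same total, 5 and 4 outside genes, 1 and 1 without the 5 libraries, and 5 and 3 with both. Of all species 87.5% were called higher outside genes in F1 and 54.3% in F3. The shares of all species under the other alternatives are not given here, so those counts have no background. F1 species reversed outside genes, at 1.29 for RLTR11A, 1.05 for RLTR11A2, 1.56 for RLTR11B, 1.62 for RLTR11D, 1.10 for RLTR17B_Mm and 1.92 for RLTR17C_Mm, and with the same total at 0.0308 for RLTR11A and 0.0294 for RLTR11B.

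Median log2 differences moved in F1 P4 to -0.0273 for RLTR11 and -0.0320 for RLTR17 with the same total, and outside genes to -0.28 for RLTR11 and 0.12 for RLTR17. Outside genes they were 0.18 and 0.36 in F1 P5, 0.26 and -0.17 in F1 P6, and 0.36 and 0.17 in F3 P6. F1 P5 against P4 had -0.31 and -0.33 at a mean of at least 20 units, 0.0376 and 0.00822 with the same total, and 0.58 and 0.88 outside genes.

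P4 and P5 share library numbers in the labels. Same-numbered libraries correlated by -0.006 to 0.278 over 11 pairs in F1 and by -0.088 to 0.460 over 9 in F3, and 5 of 11 and 4 of 9 correlated best with their own number, a hint that some are paired. Not every pair was over 0.1, and the labels do not say whether a shared number is 1 fetus, so libraries were not paired. With the replicate block F1 had 396 RLTR11 and 1585 RLTR17 calls, and F3 13 and 30, against 43578 of 101401 and 2162 of 98076 among all loci. The members' shares were 42.9% and 43.4% in F1, and 1.49% and 0.985% in F3 against 2.20% of all loci.

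Short loci, low counts outside genes and shallow F3 germline libraries limit the precision of single loci. The floor of 3 reads covers counting error only.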
